A study of Mus musculus with 2 samples.

Results

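Heme is the iron porphyrin that cytochrome P450 enzymes, catalase and the cytochromes of the respiratory chain carry as a prosthetic group. The 9 genes described here encode enzymes that make it (Alas1, Alad, Uros, Urod, Cpox, Ppox and Fech) or break it down (Hmox1 and Blvrb). They were found by gene symbol in the platform's probe-to-gene table, and all 9 had a probe set of their own among the 15644 named genes. Expression was compared between 2 Affymetrix arrays of cultured mouse hepatocytes, the parenchymal cells of the liver. The cells of both arrays came from a 9-week-old male of the C57BL/6 strain and spent 24 h in culture before treatment. The group labelled PCN then received 10 µmol/l pregnenolone 16α-carbonitrile for 12 h, and the group labelled DMSO received only the solvent dimethyl sulfoxide for the same time. PCN, a synthetic steroid, is a ligand of the rodent pregnane X receptor (PXR), which switches on genes of drug metabolism. In each group the RNA of 3 samples was pooled for 1 array, so the spread between cultures is unknown and no test of any difference was possible. Every "higher" or "lower" below describes these 2 arrays.

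Heme synthesis begins in the mitochondrion, where 5-aminolevulinate synthase joins glycine and succinyl-CoA. The middle steps take place in the cytosol, and the last oxidations and the insertion of iron again in the mitochondrion. In the liver ALAS1 is the rate-limiting step: drugs that induce P450 enzymes, PXR ligands among them, are known to raise its transcription, and heme itself holds it down. Heme oxygenase opens the ring to biliverdin, carbon monoxide and iron, and biliverdin reductases make bilirubin.

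Along the pathway the PCN array was higher at the first step and lower or level at the later ones that were measured. Alas1 was 1.23-fold higher with PCN. Of the 5 later synthesis enzymes that were measured, Alad, Uros, Urod and Ppox were lower by 1.10-fold to 1.24-fold, and Fech was level. The log2 differences of these lower enzymes all lay inside the range of the bacterial and phage control probe sets, -0.33 to 0.16. The breakdown enzymes Hmox1 and Blvrb were level as well. None of the members differed by 1.5-fold.

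The deposited values are GCRMA intensities. A gene counted as measured if it reached a log2 value of 5, an intensity of 32, in at least 1 array. This held for 6449 genes and for 8 of the 9 members, Cpox being the exception. Of the 8, 0 differed by 2-fold, which 0.326% of all measured genes did, and 0 by 1.5-fold, which 1.94% did. At 1.2-fold there were 2, Alas1 higher and Uros lower, while 18.0% of all measured genes differed by that much, 9.06% higher and 8.95% lower. In direction alone, 3 of the 8 were higher and 5 lower, against 57.6% higher and 42.4% lower over all measured genes. The median log2 difference (PCN minus DMSO) was -0.069 over the 8 members and 0.032 over all measured genes. For the 6 measured synthesis members alone it was -0.14. A share of 2 in 8 is near the background for so few genes, and nothing is read from it.

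Promoter sequence shows what some members share beside their place in the pathway, and was read from RefSeq windows (build GRCm38.p6) of 250 bases before to 50 after each start. Such windows were at hand for 7 of the 9 members, with 11 windows in all; those of Fech and Hmox1 were not used here. The motif of nuclear respiratory factor 1, an activator of nuclear genes for mitochondrial function, was searched on both strands as GCGCNTGCG. It was present in 6.31% of all 32851 windows and in 3 of the 11 member windows. These were both windows of Alas1, which hold the same sites, and a window of Uros. With so few windows, nothing is read from that share. Alas1 and Uros are also the members that differed by 1.2-fold, in opposite directions. Whether the motif bears on either difference was not tested. The sites are printed 5′ to 3′ on the strand of the gene, with the motif in capitals.
Alas1, site nearer the outer start: gcttcggcgcGCGCGTGCGcgcggcaggc
Alas1, next site: cgcacccaagGCGCATGCGcggcggtcac
Uros: cggtcacactGCGCCTGCGcgagtcccgc

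RefSeq gives 2 starts for Alas1. The first site lies at chr9:106247936-106247964 and the other at chr9:106247907-106247935, both on the minus strand. Their motifs begin 224 and 195 bases before the inner start, and 1 and 30 bases into the transcript of the outer start. The other Alas1 site also matches on the opposite strand, shifted by 1 base. The Uros site lies at chr7:133709324-133709352 on the minus strand, with its motif beginning 47 bases before the outer of its starts.

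The E-box, CACGTG, a hexamer bound by basic helix-loop-helix factors such as USF and the clock proteins, reads the same on both strands. It was present in 4 of the 11 member windows, which belong to Alad, Urod and Uros, and in 7.15% of all windows. These 3 are cytosolic enzymes of the middle of the pathway. All 3 were lower with PCN, as were 42.4% of all measured genes. Of the measured members whose windows held no E-box, Ppox was lower and Alas1 and Blvrb were higher. Whether the E-box bears on these differences was not tested. The Uros E-box begins 250 bases before a start, at the very edge of the window. A site of Alad and that of Urod, with the E-box in capitals, show how unlike the flanks are.
Alad: ccgccccgccccCACGTGggcttgcgcttt
Urod: cactggatcggtCACGTGgttctcaatatg

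The Alad site lies at chr4:62519920-62519949, with the E-box beginning 28 bases before the inner of its starts, and the Urod site at chr4:116994445-116994474, 49 bases before the start, both on the minus strand. The nuclear receptor hexamer AGTTCA was present in 2 of the 11 member windows, of Alad and Blvrb, and in 14.0% of all windows. The form AGGTCA was in 0 of the 11 member windows and in 16.3% of all windows. The antioxidant response element, searched as TGACNNNGC, was in 0 of the 11 and in 12.4% of all windows. A match of letters is a description only, and elements farther from a start lie outside these windows.

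Alas1 (Entrez gene 11655), the housekeeping form of 5-aminolevulinate synthase, had an intensity of 884 with DMSO and 1088 with PCN. With the floor of 5 and the values as deposited, it was the only measured synthesis member with the PCN array above the DMSO array. When PCN values were centred on the spike-in controls, Fech also came out higher, at 0.039. With a floor of 4, Cpox counted as measured and was higher too, at 0.18. The log2 difference of Alas1 was 0.30. Of the 6449 measured genes, 419 (6.50%) were higher by as much or more. The bacterial and phage controls, which are added from outside, give the spread of the arrays themselves: the differences of the 40 measured ones averaged -0.039 (SD 0.11) and ran from -0.33 to 0.16. Alas1 lay above that range, which holds no differences between cultures. Its erythroid counterpart Alas2, the form of red cell precursors, had 29.1 and 28.8, under the floor in both arrays.

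Alad (17025), which condenses 5-aminolevulinate to porphobilinogen, had 472 with DMSO and 425 with PCN, a log2 difference of -0.15. Uros (22276), which closes the ring to uroporphyrinogen III, had 287 with DMSO and 232 with PCN. Its difference of -0.30 was the largest of the members in size, slightly past that of Alas1, and 447 measured genes (6.93%) were lower by as much or more. It lay inside the range of the spike-in controls. Urod (22275), which decarboxylates uroporphyrinogen to coproporphyrinogen, had 1168 and 1062, a difference of -0.14. The values of Alad, Uros and Urod were lower in the PCN array under every alternative floor and scaling tried.

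**Figure D1:**
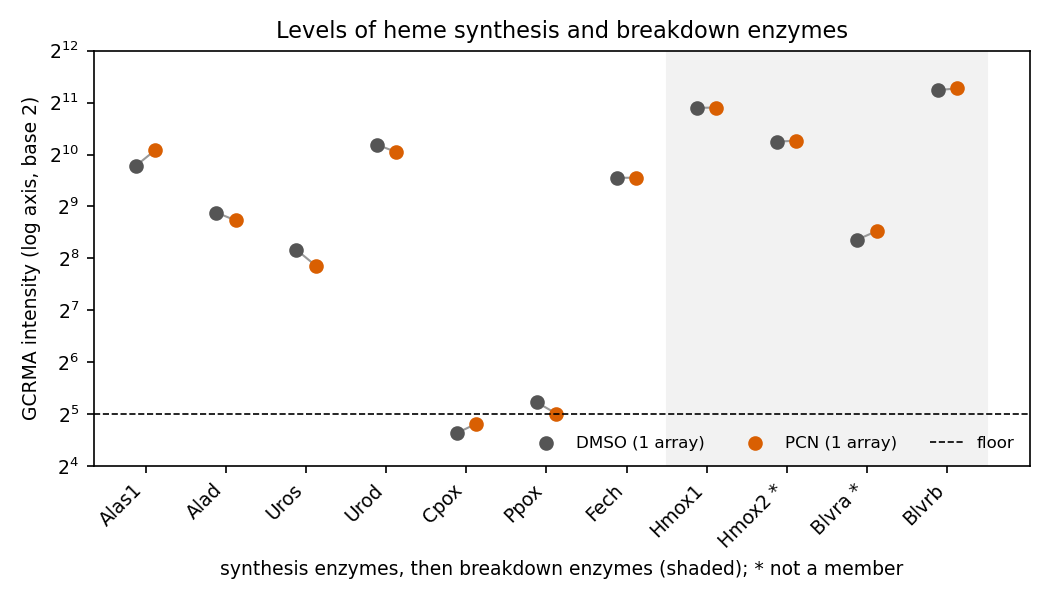
Intensities of the heme enzymes in pathway order on a log axis, 1 point for the DMSO array and 1 for the PCN array, with the floor as a dashed line; levels of different probe sets are not comparable. Alas1 is higher with PCN (884 against 1088), Alad, Uros, Urod and Ppox are lower, and Cpox lies under the floor in both arrays.

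Of the enzymes of the return to the mitochondrion, Cpox and Ppox were dim and Fech was well above the floor. Cpox (12892), which oxidises coproporphyrinogen in the intermembrane space, had 24.8 with DMSO and 28.0 with PCN, both under the floor, so it gives no difference here. Ppox (19044), which oxidises protoporphyrinogen at the inner membrane, had 37.4 and 32.2, just above the floor. Its log2 difference of -0.22 stands in the level range where the arrays differed most from gene to gene. Fech (14151), ferrochelatase, which inserts ferrous iron into protoporphyrin, had 751 in both arrays. Its log2 difference of -0.00019 has no meaningful sign and is the only one of the 5 lower members that turned positive under an alternative.

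**Figure D2:**
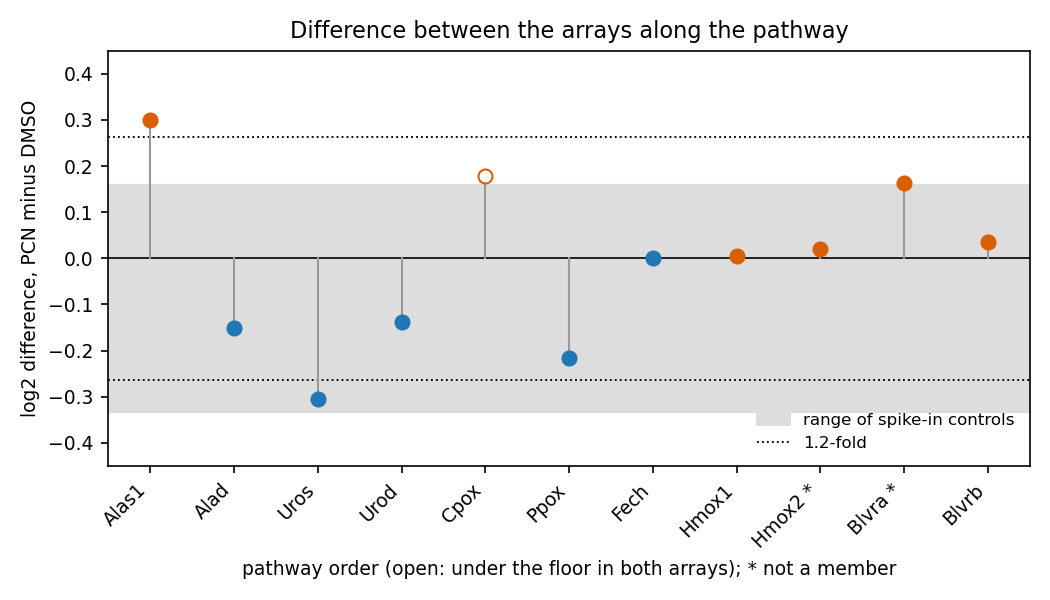
Log2 difference (PCN minus DMSO) of each enzyme in pathway order, with the range of the spike-in controls shaded, -0.33 to 0.16, and 1.2-fold marked by dotted lines; the open point is Cpox, under the floor in both arrays. Alas1 at 0.30 lies above the shaded range, Uros at -0.30 near its lower edge, and Fech, Hmox1 and Blvrb near 0.

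The breakdown enzymes were at nearly the same intensity in both arrays. Hmox1 (15368), the inducible heme oxygenase and a known marker of oxidative stress and of free heme, had 1911 with DMSO and 1917 with PCN, a log2 difference of 0.0044. Blvrb (233016), a biliverdin and flavin reductase, had 2418 and 2478, a difference of 0.035. Hmox2, the constitutive heme oxygenase, had 1216 and 1233, a difference of 0.019. Blvra, the main reductase that forms bilirubin in the adult, had 329 and 368 and differed by 0.16. All 4 measured breakdown enzymes were thus higher with PCN as deposited, as were 57.6% of all measured genes, whose median difference was 0.032. Hmox1 and Hmox2 turned negative with median centring, quantile normalization or the loess trend removed. Their lowest values there were -0.028 and -0.033.

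How far a gene must differ to stand out depends on its level. Among the 2310 measured genes with a mean log2 level from 5 to 7, where Ppox lies, the SD of the log2 differences over genes was 0.26 and 24.8% differed by 1.2-fold. Among the 2166 genes from 7 to 9, which hold Alad and Uros, the SD was 0.23 and 18.8% did. In the range from 9 to 11, with 1382 genes, the SD was 0.17 and 10.7% did. Alas1, Urod, Fech and Hmox1 lie in this last range, whose 95th percentile of log2 differences was 0.27, under the 0.30 of Alas1. For Uros the 5th percentile of its range was -0.36, so that it did not pass it. These ranges describe genes and are no measure of error for a single gene.

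**Figure D3:**
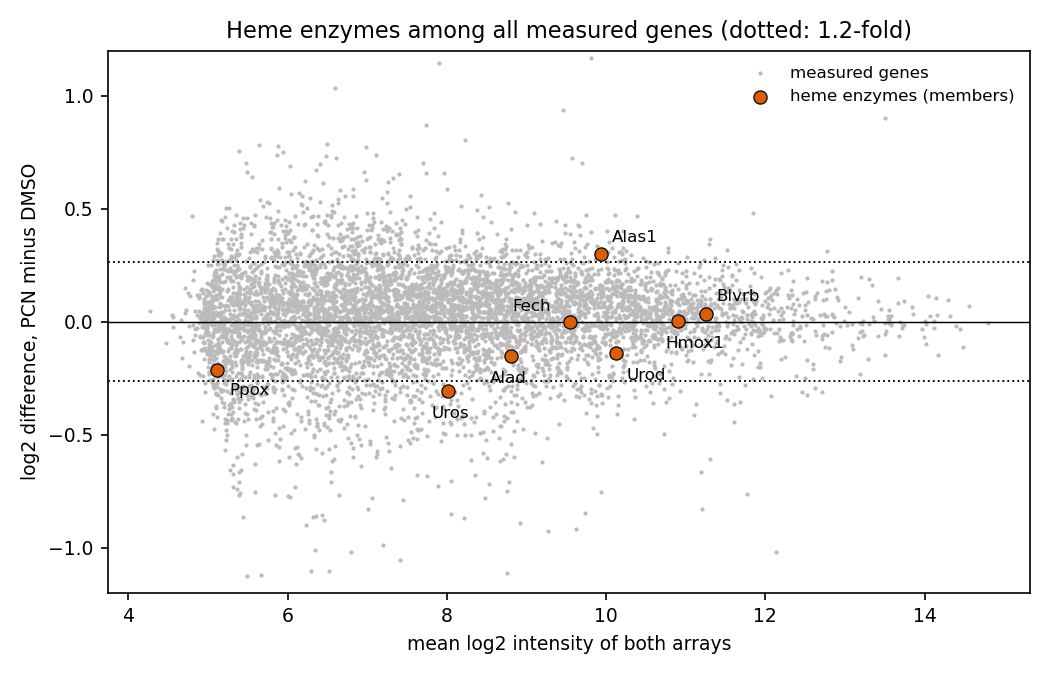
Log2 difference (PCN minus DMSO) against mean log2 intensity for the measured genes (grey) with the 8 measured members marked; dotted lines are 1.2-fold, and 9 genes beyond ±1.2 are outside the axis. The members lie within the cloud, with Alas1 at its upper edge for its level and Uros toward the lower edge.

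Among the genes that move heme and its precursors, the share that passed 1.2-fold was near the background. Of 19 listed genes for transport and binding, 15 were measured, 8 higher and 7 lower, with a median log2 difference of 0.0058 and a split that turned to 6 higher and 9 lower with median centring. Past 1.2-fold were Slc25a37, mitoferrin 1, which carries iron into mitochondria, at 1.35-fold higher (444 with DMSO and 598 with PCN), and 2 lower genes. These were Hebp1, a cytosolic heme-binding protein, at 1.43-fold lower (484 and 339), and Abcb6, a porphyrin transporter, at 1.43-fold lower (180 and 126). The background at 1.2-fold was 18.0%, made up of 9.06% with the PCN array above and 8.95% with it below. With 1 higher and 2 lower of 15, the list lies near that background, and nothing is read from the count. Slc25a38, the mitochondrial glycine carrier of heme synthesis, had 34.2 and 36.9.

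**Figure D4:**
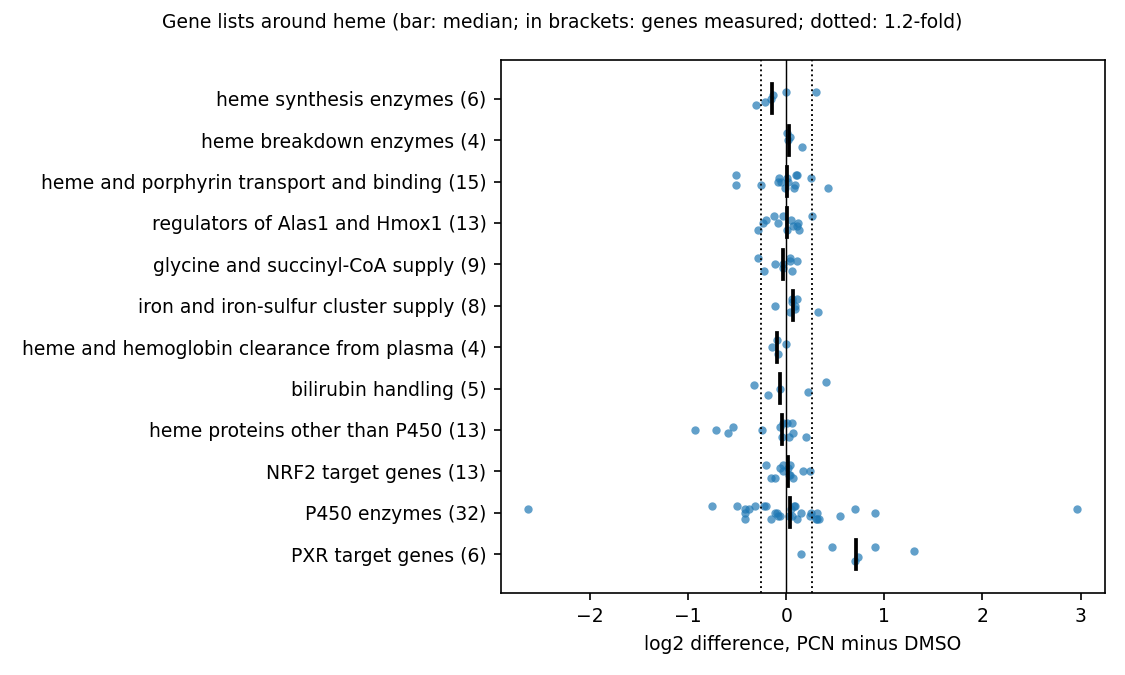
Log2 difference (PCN minus DMSO) of each measured gene in 12 lists around heme, 1 point per gene, with the median as a bar, the number measured in brackets and dotted lines at 1.2-fold. The 6 synthesis enzymes have their median at -0.14, the transport, regulator, NRF2 and P450 lists have medians near 0, and the 6 PXR targets, 2 of them lower bounds, lie to the right.

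The substrates of ALAS1 come from glycine and the citric acid cycle. Of 12 listed genes for glycine and succinyl-CoA supply, 9 were measured, 4 higher and 5 lower, with a median of -0.035, while spike-in centring gave 7 higher and 3 lower of 10. The largest differences were those of Shmt1, cytosolic serine hydroxymethyltransferase, at 1.22-fold lower, Gldc, the glycine decarboxylase, at 1.17-fold lower, and Dld at 1.08-fold higher. Of 15 genes of iron and iron-sulfur cluster supply, 8 were measured, with a median of 0.072. Of these 7 were higher, against 57.6% of all measured genes. Aco1, the iron-sensing cytosolic aconitase, was 1.25-fold higher (1567 and 1966), and the ferritin subunit gene Fth1 was 1.08-fold lower. The transferrin receptor gene Tfrc, which brings iron into the cell, had 102 and 110.

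Known regulators of Alas1 and Hmox1 were partly under the floor. Of 20 listed, 13 were measured, 7 higher and 6 lower, with a median of 0.0026, and 6 higher and 7 lower with median centring. Nr1i2, the gene of PXR, had 71.9 with DMSO and 70.1 with PCN. The genes of the coactivator PGC-1α (Ppargc1a, 7.21 and 5.44), of nuclear respiratory factor 1 (Nrf1, 15.0 and 13.7), of the heme-sensing repressors BACH1 (Bach1, 13.9 and 13.5) and REV-ERBα (Nr1d1, 12.0 and 13.7) and of CAR (Nr1i3, 4.33 and 3.55) were under the floor in both arrays. Nfe2l2, which encodes NRF2, the activator of Hmox1, had 3656 and 3359. Its partner gene Mafg was 1.22-fold lower, the only regulator past 1.2-fold as deposited. With quantile, median or loess scaling 2 regulators were lower by 1.2-fold, with spike-in centring 0 were lower and 1 higher, and with a floor of 4 there was 1 each way. Lonp1, the mitochondrial protease that degrades ALAS1 when heme is ample, was higher (1425 and 1704), with a difference of 0.26 just under 1.2-fold. Clpx, an unfoldase that acts on ALAS1, was 1.18-fold lower. Beside the level Hmox1, the 13 measured NRF2 target genes had 7 higher and 6 lower, a median of 0.012 and 0 at 1.2-fold, and with median centring 5 were higher and 8 lower. Osgin1 at 1.18-fold higher, Nqo1 at 1.15-fold lower and Gsr at 1.12-fold higher were the farthest apart.

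Downstream of the pathway lie the proteins that use heme and those that clear it. Of 67 P450 genes with a probe set, 32 were measured, 17 higher and 15 lower, with a median of 0.039. Among them 8 were higher and 8 lower by 1.2-fold, against 9.06% and 8.95% of all measured genes. Cyp3a11, a main PXR target, had 8519 with DMSO and 15919 with PCN, 1.87-fold higher, and Cyp3a25 was 7.82-fold higher. Cyp26a1, which clears retinoic acid, was at least 6.19-fold lower. Of the 6 listed PXR targets, picked with their values in these arrays known, 4 reached the floor in both arrays. Gstm3, a glutathione S-transferase, had 641 and 1580, 2.47-fold higher, and Ces2a, a carboxylesterase, had 591 and 978, 1.65-fold higher. Cyp2b10 (25.9 and 35.4) and the drug efflux pump gene Abcb1a (17.5 and 44.2) were under the floor with DMSO. They counted as measured through the PCN array alone and could only come out higher, so the list's median of 0.72 mixes bounds with differences and supports nothing.

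Of 13 measured heme proteins outside the P450 family, 8 were lower, against 42.4% of all measured genes, with a median of -0.047. At 1.2-fold 4 were lower and 0 higher, against 8.95% lower and 9.06% higher over all measured genes. The split was 3 higher and 10 lower with median centring, and 6 higher and 7 lower with spike-in centring. Tdo2, tryptophan dioxygenase, whose activity depends on its heme supply, was 1.90-fold lower (851 and 448). The metalloreductase gene Steap4 was 1.64-fold lower and the sulfite oxidase gene Suox 1.51-fold lower. Catalase (Cat) had 3502 and 3430, and cytochrome b5 (Cyb5a), an electron donor of P450 enzymes, had 8784 and 10086. Of the genes that handle bilirubin, 5 of 11 were measured, 2 higher and 3 lower, with a median of -0.069. Abcc2, the canalicular pump for conjugated bilirubin, was 1.32-fold higher (897 and 1187), Gsta4 1.17-fold higher and Gsta3 1.26-fold lower. Of 5 genes that clear heme and hemoglobin from plasma, 4 were measured and all 4 were lower, or 3 of them with spike-in centring. Over all measured genes 42.4% were lower. Hemopexin (Hpx) and haptoglobin (Hp), which bind free heme and hemoglobin, were 1.07-fold and 1.11-fold lower. Lrp1, the receptor of the heme-hemopexin complex, was 1.06-fold lower.

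The hepatocyte markers Alb, Apoa1 and Ttr were bright, Alb at 21685 and 21383, Apoa1 at 18024 and 17665 and Ttr at 13614 and 13469, while Tat was under the floor in both arrays. Farthest apart in this list were Cyp2e1, 1.24-fold higher with PCN (2631 and 3275), Hnf4a, a liver transcription factor, 1.16-fold lower (529 and 457), and Serpina1a, 1.05-fold higher. Of 12 hepatocyte markers, 8 were measured, with a median of -0.025. All 8 erythroid markers with a probe set were under the floor in both arrays, Alas2 being the brightest, and their summed intensity was 59.9 with DMSO and 59.4 with PCN; the globin genes were not analysed here. Of the 15 markers of Kupffer cells and leukocytes, 3 reached the floor, with sums of 1866 and 1821, nearly all of it from Cd68 (1690 and 1626). The defining macrophage genes Adgre1 (6.19 and 7.24), Clec4f and Marco were under the floor in both arrays. The complement genes C1qb (26.7 and 38.1) and C1qa each reached it in 1 array, C1qa only with DMSO (34.9). Of 10 endothelial and stellate cell markers, 3 were measured, with sums of 183 and 188. These were Lyve1 (30.4 and 39.8), Acta2 (36.5 and 30.6) and Stab2 (42.1 and 37.0), all near the floor. Of 5 bile duct markers, 2 were measured, with sums of 308 and 331. They differed in opposite directions, Krt19 1.32-fold higher with PCN (169 and 223) and Sox9 1.34-fold lower (127 and 95.2); their part in the results was not tested. In pooled bulk RNA, fewer cells of a type and less RNA per cell cannot be told apart. The 3′ to 5′ log2 ratio of the Actb control probe sets, a sign of RNA integrity, was 0.59 with DMSO and 0.60 with PCN.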

How the data were processed

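RNA of cultured hepatocytes was measured on 2 arrays. Per the labels' protocols, biotinylated cRNA was prepared from 5 µg of a pool of 3 RNA samples. The deposited intensity values are on a linear scale (1.13 to 28482), and the submitters' processing notes name GCRMA 2.2.0, which corrects background, normalizes arrays to each other and summarises probe sets. The genome build and probe set definition are not given in the labels used here. Of 16395 probe sets, 64 were Affymetrix controls and 15644 had 1 gene symbol, with no more than 1 probe set per gene. All 9 members carried the same symbol in RefSeq.

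From the deposited intensities, log2 values, medians and counts were computed with Python 3.11.15, numpy 2.4.6, pandas 2.3.3 and statsmodels 0.14.6. Values under a floor of 5 (log2) in 1 array were raised to it and the fold written as "at least"; under it in both, a gene was not measured. The floor is a choice, since no detection calls were used. Each group had 1 array, so no test, SE or p-value was computed, and precision is limited by there being 1 array per group. Treatment and any batch cannot be told apart. The members, lists, folds and alternatives were chosen with earlier results of these data known. Named genes are the members, the other listed heme enzymes, in each list the 3 measured genes farthest apart, and 7 genes set by name; others were named after their values were seen. Alternatives were floors of 4 and 6, low values as deposited, and quantile, median, loess (fraction 0.3) and spike-in scaling. The steps were tested on simulated data, with planted differences far larger than any of the members. That check therefore does not show how well differences of the size reported here are recovered.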

Additional observations from a re-analysis of the deposited data

How the results depend on the processing

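All 69 alternative values of single enzymes moved by less than the SD of the spike-in controls, an outcome largely fixed in advance. Another floor, or low values left as deposited, cannot change the difference of an enzyme above the floor in both arrays. Centring on the median or the spike-ins moves the PCN values by a constant, from 0.032 and -0.039, both smaller in size than that SD of 0.11. Alas1 ranged from 0.264 (loess trend removed) to 0.34 (spike-in centring), and Uros from -0.35 to -0.266. Both were always past 1.2-fold, a log2 difference of 0.263 in size, but at their nearest only barely. Of 112 list medians, 110 stayed within that SD. This too was largely fixed in advance, except where a floor changed which genes counted as measured. With a floor of 4, Kupffer cell markers stood at 0.061 and endothelial and stellate cell markers at 0.17, and 2 synthesis enzymes were higher, since Cpox then counted as measured at 0.18. With spike-in centring 2 were also higher, Fech being the other. With a floor of 6, Ppox was not measured. With Hmox2 and Blvra added, the median was 0.0021. Every scaling left the median of all measured genes within 0.1 of the reported one. Leaving out a replicate could not be tried. No paired analysis was possible because there is 1 array a group. Cpox and Ppox are limited by signal near background.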

Other observations

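Some transcripts were read by several probe sets on the same arrays, which shows how far probe sets of a single transcript can differ. They read the same pooled RNA, so their spread holds no differences between cultures or between repeated arrays. The transferrin receptor, an iron uptake gene, had log2 differences (PCN minus DMSO) of 0.11 in its own probe set and of 0.060, 0.017 and 0.17 in 3 control probe sets. The control probe sets at 0.017 (46.4 with DMSO and 47.0 with PCN) and 0.17 (37.5 and 42.1) were near the floor. Pyruvate carboxylase, the biotin enzyme of gluconeogenesis, was lower with PCN in its own probe set (-0.37, from 122 to 94.2) and in all 4 of its control probe sets, from -0.69 to -0.27. For Actb the 4 values ran from 0.0047 to 0.047, and for the 3 Gapdh controls from -0.030 to 0.0093. Each heme enzyme has a single probe set, so no such check exists for Alas1 or Uros.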
